A study of Mus musculus with 11 samples.

Results

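The mitochondrial ribosomal protein genes were taken as the gene symbols that consist of Mrpl or Mrps, a number and at most 1 letter, without pseudogene rows. This gave 78 of the 32469 symbols counted, 49 Mrpl genes, named for the large subunit, and 29 Mrps genes, named for the small subunit. They were measured by bulk RNA-seq in precursor exhausted CD8+ T cells, the stem-like subset of exhausted T cells, sorted as PD-1+Ly108+TIM-3-CD62L- cells from Lewis lung carcinoma (LLC) tumors of 11 wild-type C57BL/6 mice, with a library per mouse. LLC is a mouse lung carcinoma line, and all mice carried the tumor in both flanks. In the anti-LAG-3 group, 6 mice received 200 µg of the LAG-3 blocking antibody clone C9B7W intraperitoneally on day 14 and again on day 16, and the 5 mice of the other group were left untreated. The anti-LAG-3 mice are called treated below. The tumors came out on days 14 and 18 by the study's methods and on days 14 and 21 by the deposited series text. By the methods, the C57BL/6 mice were females bought at 8 weeks of age. The comparison asks whether LAG-3 blockade moved the transcripts of the mitochondrial ribosome, and whether those of its large and small subunits moved alike.

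Total counts ranged from 313524 to 1901374 per library. Depth followed the primer barcode, with a median of 1141450.5 counts for the 6 libraries with barcode 9 (3 of each group), 411796.5 for the 4 with barcode 8 (1 untreated, 3 anti-LAG-3) and 317449 for the single untreated library with barcode 10. The 6 CD8 T cell markers (Cd3d, Cd3e, Cd3g, Cd8a, Cd8b1, Trac) summed to between 4846 and 5388 CPM (counts scaled for library depth) in all libraries. The 9 myeloid markers summed to 12.6 to 42.4 CPM in untreated mice and 10.6 to 92.5 CPM in anti-LAG-3 mice, with S100a8 and S100a9 at 0 counts, and the 5 epithelial markers to 2.36 to 12.6 CPM in all libraries, with Krt19 at 0. The B cell list summed to 70.2 to 118 CPM, mostly Ighm (mean 80.2 CPM), and the fibroblast or endothelial list to 137 to 214 CPM, mostly Pecam1 (mean 173 CPM). The CD4 T cell and Treg list summed to 387 to 514 CPM, mostly Ctla4 (mean 340.3 CPM), with at most 1 read of Cd4 or Foxp3 in a library. The NK cell list summed to 9.45 to 33.8 CPM, the erythroid list to 0 to 12.8 CPM and the cycling cell list to 179 to 413 CPM. The part of other cells in the values below was not tested. In such bulk samples, fewer cells with a transcript and less of it per cell cannot be told apart.

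Mitochondrial ribosomes translate the few proteins that mitochondrial DNA still encodes, all of them subunits of the respiratory chain complexes or of ATP synthase. Their ribosomal RNAs come from mitochondrial DNA, whereas every ribosomal protein is encoded in the nucleus, made in the cytosol and imported. About as many genes again encode the cytosolic ribosome (Rpl and Rps), which is a separate set. CD8 T cells build up mitochondrial translation when they are activated, and exhausted cells are known for impaired mitochondria. Some members carry names that their place in the structure has overtaken: Mrps18a and Mrps30 sit in the large subunit, and Mrps36 belongs to the 2-oxoglutarate dehydrogenase complex. The symbols were kept as the grouping below, and the structural assignment was run beside it.

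The promoters show what the members share in sequence. RefSeq promoter windows from 250 bases before to 50 bases after the start (GRCm38.p6) were at hand for 69 members. The 8 stretches here run from 100 bases before to 20 bases after the start, 5′ to 3′ on the gene's strand, and were chosen for the member with the highest level (Mrpl52), the member whose groups did not overlap (Mrpl33), the member with the smallest p (Mrps17), and members with a match to each motif (Mrpl58, Mrpl9, Mrpl36, Mrps18a and Mrps26). Capitals mark matches to the ETS motif CCGGAAG, the YY1 motif AAGATGGC, the NRF1 motif GCGCATGC or the E-box CACGTG, each on either strand. ETS, YY1 and NRF1 motifs are names for the sites of GABP and other ETS factors, Yin Yang 1 and nuclear respiratory factor 1, which are known to act at genes for mitochondrial proteins.
Mrpl52: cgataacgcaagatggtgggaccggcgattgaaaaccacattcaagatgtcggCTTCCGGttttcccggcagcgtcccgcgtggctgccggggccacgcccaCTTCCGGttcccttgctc
Mrpl33: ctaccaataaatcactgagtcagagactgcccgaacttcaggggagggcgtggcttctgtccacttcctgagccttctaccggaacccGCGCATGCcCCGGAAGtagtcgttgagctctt
Mrpl58: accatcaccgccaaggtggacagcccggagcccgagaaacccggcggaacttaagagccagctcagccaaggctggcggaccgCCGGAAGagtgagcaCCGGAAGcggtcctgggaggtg
Mrpl9: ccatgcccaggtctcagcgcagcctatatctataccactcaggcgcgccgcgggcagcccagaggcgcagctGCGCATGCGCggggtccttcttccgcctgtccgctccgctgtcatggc
Mrpl36: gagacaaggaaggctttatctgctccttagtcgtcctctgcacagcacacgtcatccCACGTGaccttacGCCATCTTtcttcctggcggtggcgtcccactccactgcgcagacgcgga
Mrps18a: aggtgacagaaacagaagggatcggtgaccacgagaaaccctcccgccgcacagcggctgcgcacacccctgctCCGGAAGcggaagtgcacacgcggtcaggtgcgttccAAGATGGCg
Mrps26: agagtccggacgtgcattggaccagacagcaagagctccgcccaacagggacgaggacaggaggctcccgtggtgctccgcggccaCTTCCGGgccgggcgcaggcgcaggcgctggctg
Mrps17: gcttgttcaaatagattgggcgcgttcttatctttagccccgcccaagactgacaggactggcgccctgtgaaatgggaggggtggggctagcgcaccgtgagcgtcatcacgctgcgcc

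In GRCm38.p6 these stretches lie at Mrpl52 chr14:54426809-54426928 (+ strand), Mrpl33 chr5:31613851-31613970 (+ strand), Mrpl58 chr11:115403652-115403771 (+ strand), Mrpl9 chr3:94443236-94443355 (+ strand), Mrpl36 chr13:73330909-73331028 (+ strand), Mrps18a chr17:46110904-46111023 (+ strand), Mrps26 chr2:130563657-130563776 (+ strand), Mrps17 chr5:129715397-129715516 (+ strand). Counted with the first transcribed base as 1, the ETS matches of Mrpl52 began at bases -47 and 3, that of Mrpl33 at base -3, behind an NRF1 match at base -12, those of Mrpl58 at bases -17 and -2 and that of Mrps26 at base -14. Mrpl9 had overlapping NRF1 matches at bases -28 and -26, Mrpl36 had a YY1 match at base -30 and an E-box at base -43, and Mrps18a had an ETS match at base -26 and a YY1 match at base 12. Mrps17 had no match to these motifs in the stretch shown. The letters of the ETS motif were found in the windows of 25 of 69 members (36.2%), against 23.4% of 4990 windows of the genes tested here and 9.12% of 27025 windows of all genes. The YY1 letters were found in 12 members (17.4%), against 5.79% of the genes tested and 2.88% of all genes. The NRF1 letters were found in 8 members (11.6%), against 6.41% and 2.80%, and these were Mrpl9, Mrpl10, Mrpl17, Mrpl22, Mrpl32, Mrpl33, Mrpl39 and Mrps18b. The E-box was found in 7.25% of members, 10.7% of the genes tested and 7.24% of all windows, and the TATA letters TATAAA in 5.80%, 7.15% and 14.2%. No motif of these holds another's letters. ETS matches were found in 14 of 43 Mrpl windows (32.6%) and 11 of 26 Mrps windows (42.3%), and YY1 matches in 14.0% and 23.1%. NRF1 matches were found in 16.3% of Mrpl windows and 3.85% of Mrps windows, E-boxes in 9.30% and 3.85%, and TATA letters in 4.65% and 7.69%. These are descriptions of letters in a window, given without a test.

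**Figure D1:**
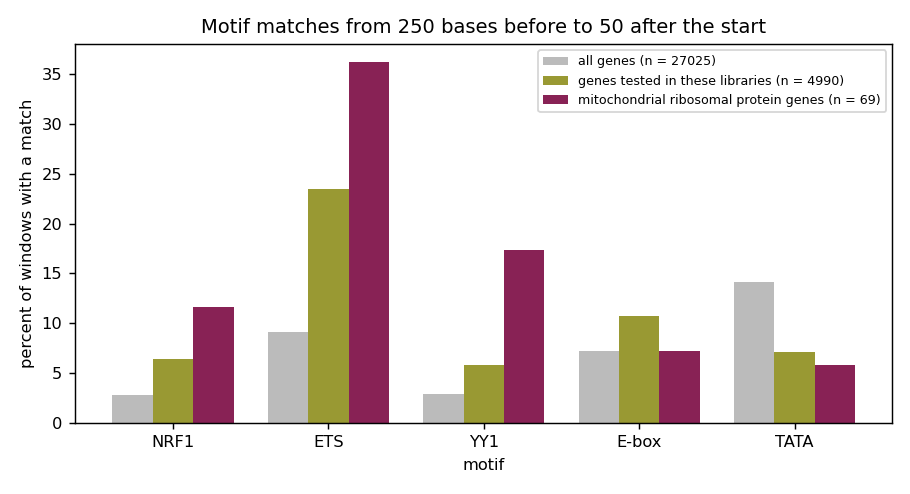
Percent of promoter windows (250 bases before to 50 after the start, RefSeq, GRCm38.p6) with at least 1 match to each motif on either strand, for all genes (n = 27025), the genes tested in these libraries (n = 4990) and the mitochondrial ribosomal protein genes (n = 69). The members' bars stand above both others for NRF1 (11.6%), ETS (36.2%) and YY1 (17.4%), and below both for TATA (5.80%).

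The members were spread over 17 chromosomes, with 11 of 78 on chromosome 11, 8 on chromosome 17 and 7 on chromosome 6. In the principal transcript, they had 2 to 12 exons, with a median of 5, and a median length of 1302 bases. The principal transcript is the longest among a gene's protein-coding transcripts with the best APPRIS tag in the annotation. A protein-coding neighbour on the opposite strand started within 1000 bases upstream of 18 members (23.1%), against 11.4% of the 6036 protein-coding genes tested here and 6.79% of 21938 in the annotation. Among these pairs, Mrps12 (uS12m, of the decoding centre) started 172 bases from Sars2, which encodes the mitochondrial seryl-tRNA synthetase, Mrpl49 59 bases from Fau, a cytosolic ribosomal protein gene, and Mrps18b 45 bases from Ppp1r10. How reads that fit several genes were counted is not stated. Over 50% of the 50-base stretches of the transcripts of Mrpl53, Mrps25 and Mrps34 occur in other genes' transcripts, so their counts are uncertain, and Mrpl46 and Mrps11 overlap each other. The Mrpl23-ps1 row, left out here as a pseudogene, held 1208 reads in all against 720 for Mrpl23, so the level of Mrpl23 is uncertain too.

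All 78 members had reads in all 11 libraries. Together they took 0.443% to 0.494% of the counts of a library. Levels of different genes were compared as mean CPM per kilobase of the principal transcript, and they spanned 3.54 to 614 CPM per kb, 174-fold. By the methods, the barcode primer joined at the template-switch end of the cDNA, before fragmentation. Whether reads covered the whole transcript is not stated. If they did not, dividing by length lowers this measure for long transcripts. The highest large-subunit genes were Mrpl52 (614 CPM per kb), Mrpl33 (305), Mrpl54 (192), Mrpl20 (178) and Mrpl23 (119). Mrpl33 and Mrpl20 encode counterparts of bacterial proteins bL33 and bL20, whereas Mrpl52 and Mrpl54 encode proteins that bacterial ribosomes lack. The highest small-subunit genes were Mrps21 (224 CPM per kb), Mrps18c (105), Mrps36 (101.5), Mrps24 (90.04, uS3m) and Mrps15 (78.1, uS15m). Lowest among the tested genes were Mrpl48 (9.42 CPM per kb), Mrpl19 (6.85) and Mrpl17 (6.47) in the large subunit and Mrps31 (11.0), Mrps5 (7.17) and Mrps25 (6.70) in the small subunit. Of these, Mrpl17, Mrpl19, Mrpl48, Mrps5 and Mrps25 have annotated transcripts of 4285 to 7300 bases. Not divided by length, these lowest genes averaged from 16.6 CPM (Mrps31) to 47.2 CPM (Mrpl17) over all mice. The median over the 73 tested members was 52.4 CPM. The median was 38.7 CPM per kb over Mrpl genes and 30.3 over Mrps genes. The 46 members with a counterpart in bacteria had a median of 43.5 CPM per kb and the 29 without one 19.9, with Mrps18a, Mrps30 and Mrps36 left out. Not divided by length, the medians of tested large-subunit genes were 55.1 CPM (28 with a counterpart) and 41.8 CPM (19 without). In the small subunit the order was the other way, at 53.2 CPM (15 with) and 58.4 CPM (8 without). The order held in both groups for the leading genes: Mrpl52 stood at 623 CPM per kb in untreated and 606 in treated mice, Mrpl33 at 331 and 284, and Mrps21 at 244 and 208.

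**Figure D2:**
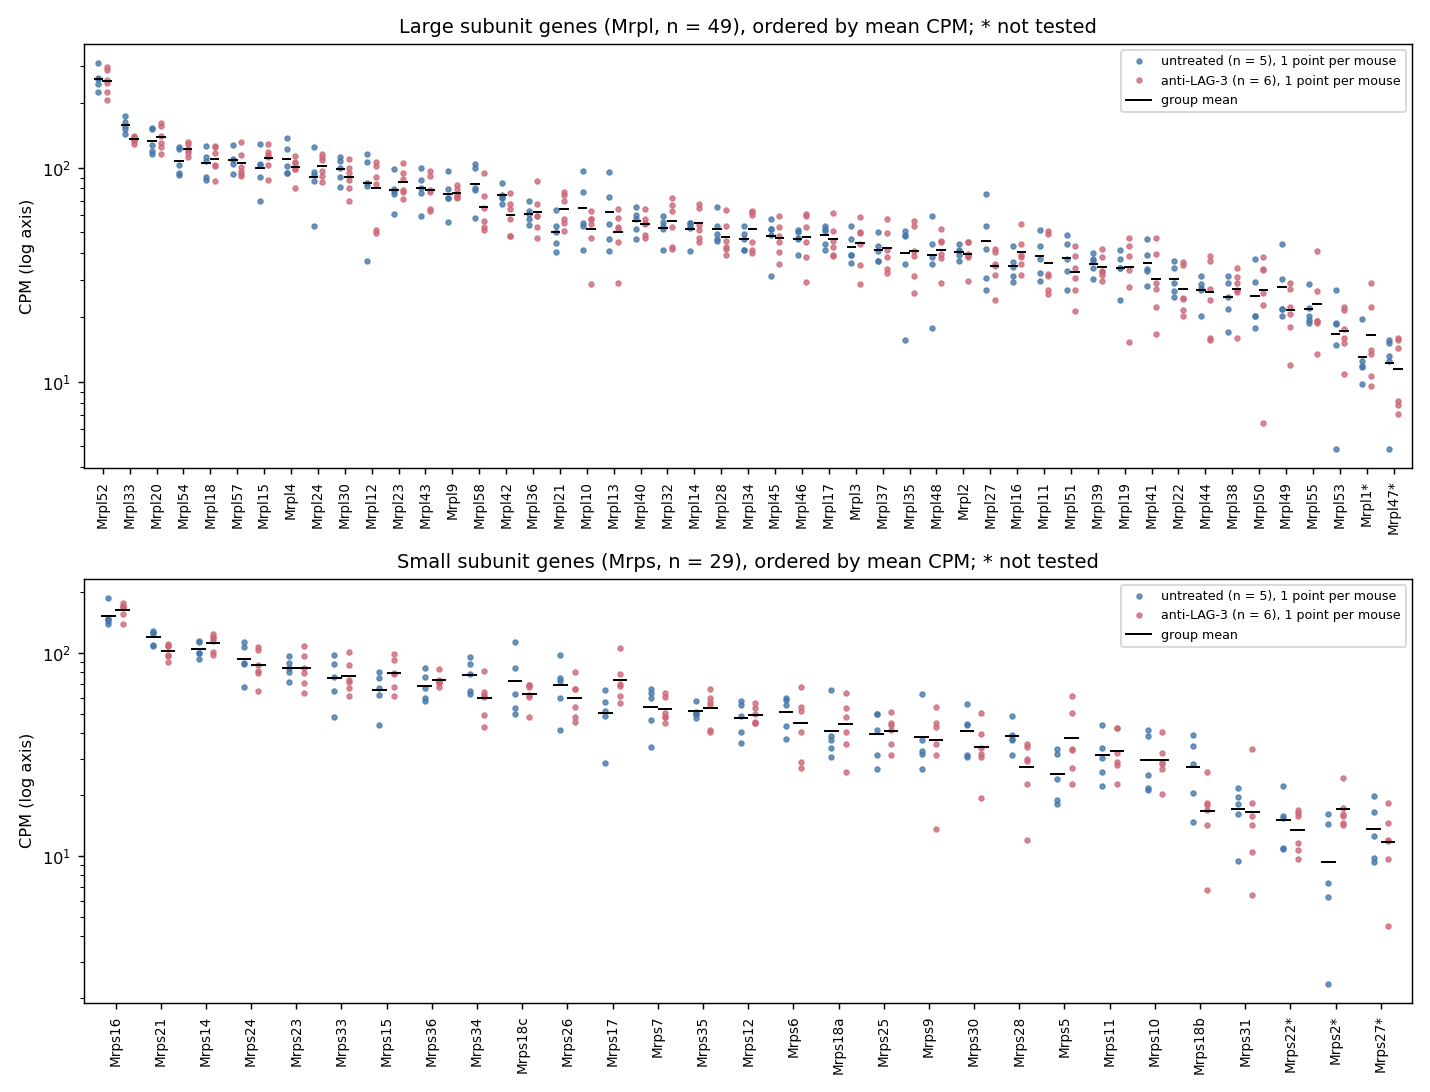
CPM (log axis) of the 49 Mrpl genes (upper panel) and 29 Mrps genes (lower panel) in each mouse, with untreated mice (n = 5) in blue and treated mice (n = 6) in red, bars for group means, and genes ordered by mean CPM. CPM here is not divided by length. Blue and red points overlap for nearly every gene, and genes marked with an asterisk were too low to be tested.

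The transcripts of the mitochondrial ribosome stood at nearly the same summed level in both groups. The Mrpl genes summed to 2953, 3023, 3026, 3147 and 3160 CPM in the untreated mice and to 2877 to 3227 CPM in the treated mice, with a median of 2957. The untreated mean was 3062 ± 88.9 CPM (SD, n = 5), that of the treated mice was 2993 ± 131 CPM (SD, n = 6), and the ranges overlapped. The Mrps genes summed to 1514, 1519, 1632, 1639 and 1729 CPM in untreated mice and to 1515 to 1710 CPM in treated mice, with a median of 1572. The means of 1607 ± 91.0 and 1589 ± 70.9 CPM (SD) differed by less than 1 SD. These sums are per total counts and are weighted to the genes with most reads. The single anti-LAG-3 mouse with the highest share of member reads (0.494%, replicate 6) stood above the other 5 mice of its group (0.443% to 0.457%).

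The large and the small subunit stood in nearly the same proportion to each other in both groups. The ratio of summed Mrpl to Mrps counts was 1.82, 1.85, 1.85, 1.95 and 2.08 in the untreated mice, and ran from 1.77 through a median of 1.88 to 2.01 in the treated mice. Its means were 1.91 ± 0.108 (SD, n = 5) and 1.89 ± 0.0790 (SD, n = 6), so that the ratio of the means was 0.987. The ranges overlapped over most of their length. With Mrps18a and Mrps30 counted in the large subunit and Mrps36 left out, the means were 2.17 ± 0.128 and 2.14 ± 0.111. Within primer barcode 9, they were 1.96 in 3 untreated and 1.88 in 3 treated mice, and within barcode 8 they were 1.85 in 1 untreated mouse and 1.89 in 3 treated mice. The sample names carry a further code, whose meaning is not given, that untreated replicates 2 and 3 share with treated replicate 10. In these 3 libraries the ratio was 1.82, 1.85 and 1.88. Untreated replicates 4 and 5 share another code, and the other 6 libraries have a code each. For the cytosolic ribosome, the same ratio of large to small was 1.25 ± 0.0111 in untreated and 1.24 ± 0.0247 in treated mice (SD).

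**Figure D3:**
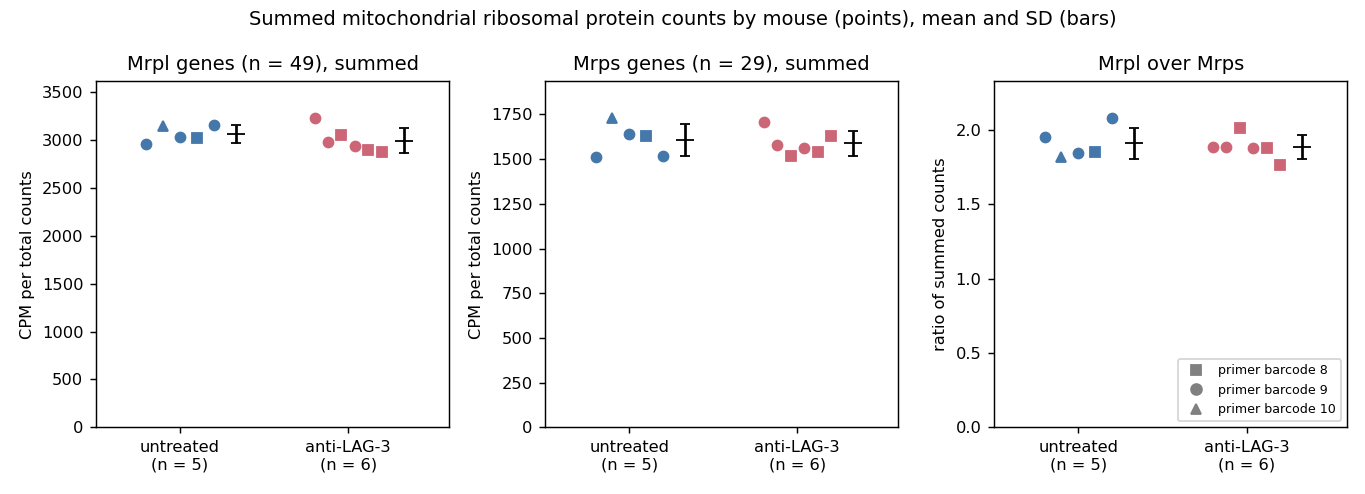
Summed CPM of the 49 Mrpl genes (left), of the 29 Mrps genes (middle) and the ratio of their summed counts (right) in each mouse, with point shapes for the primer barcode and bars for mean and SD. The groups overlap in all 3 panels, and the ratio lies between 1.77 and 2.08 in all 11 mice.

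Gene by gene, 73 of the 78 members passed the filter on low counts, 47 of the large and 26 of the small subunit. None of them passed the test, in which 0 of 6949 genes (0% of all genes) had an adjusted p under 0.05 (edgeR quasi-likelihood test, p adjusted by Benjamini-Hochberg). The unadjusted p was under 0.05 for 4 of 73 members, against 3.71% of all genes tested. These 4 were Mrps17 and Mrpl21, higher in treated mice, against 1.71% of all genes, and Mrps18b and Mrpl33, lower, against 2% of all genes. A log2 fold change above 0 was found for 22 of 47 large-subunit genes and 13 of 26 small-subunit genes, 35 of 73 together, against 51.1% of all genes. The median log2 fold change was -0.01 over large-subunit genes, -0.01 over small-subunit genes and 0.00 over all genes. Large-subunit genes ran from -0.30 to 0.40 and small-subunit genes from -0.74 to 0.54 on the log2 scale. The 95% interval of the fold change lay within 2-fold in either direction for 72 of the 73 members, all but Mrps18b, and within 1.5-fold for 52. The intervals bound what these libraries could show, and do not show that the groups were alike. The genes of the cytosolic ribosome had a median log2 fold change of -0.01 over 48 large-subunit genes and 0.01 over 31 small-subunit genes.

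**Figure D4:**
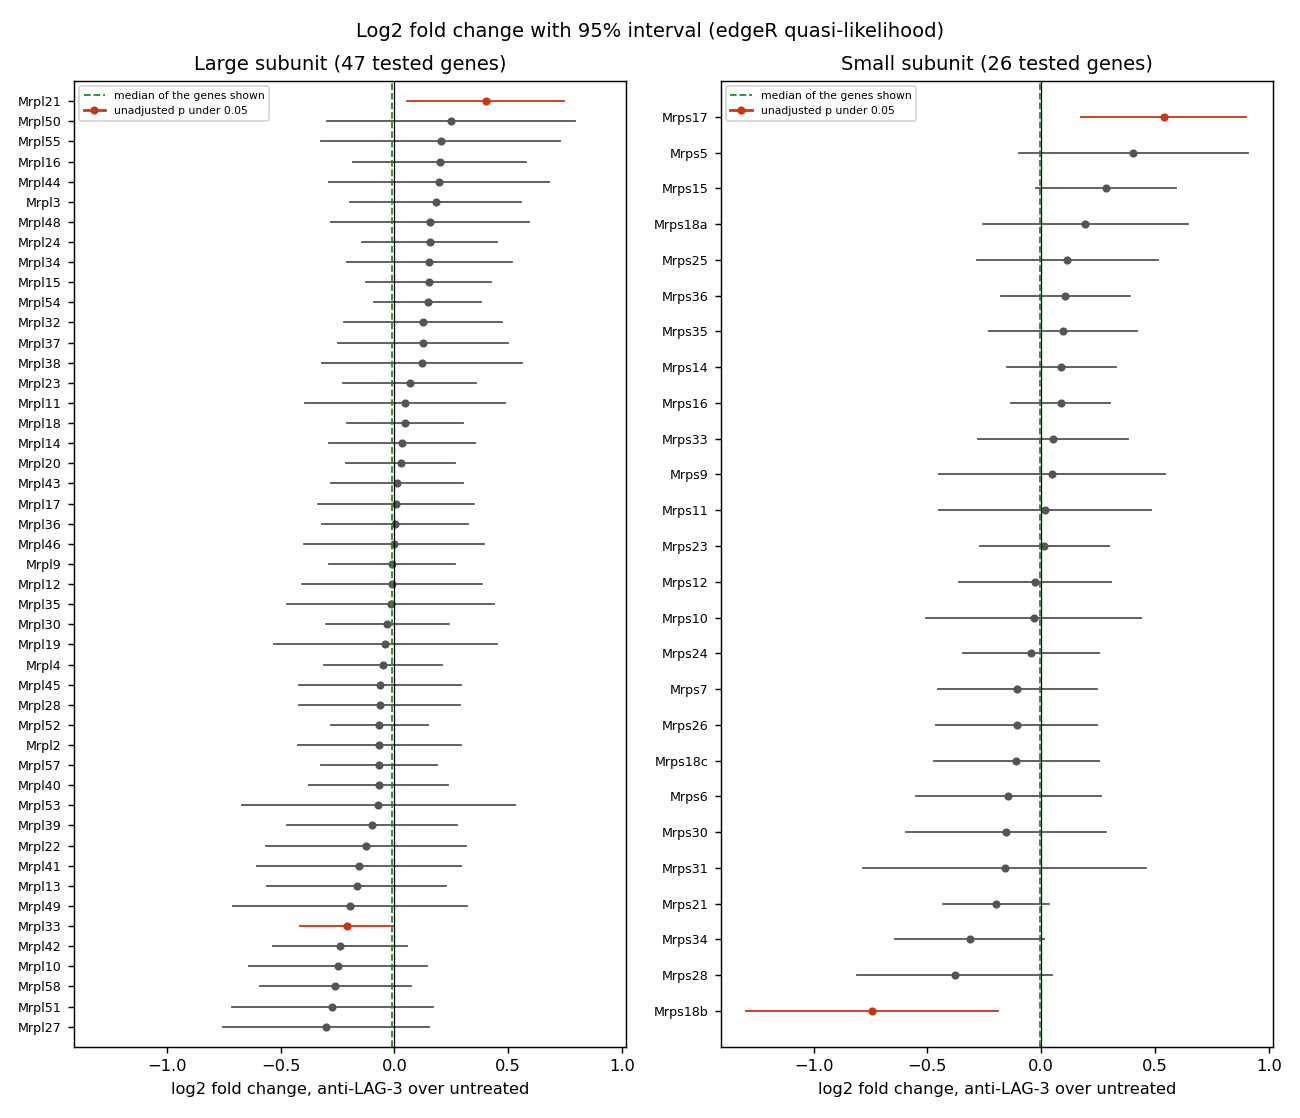
Log2 fold change of each tested member, anti-LAG-3 over untreated, with its 95% interval, for the large subunit (47 genes, left) and the small subunit (26 genes, right), with red for an unadjusted p under 0.05 and a dashed line at the median. Both medians lie at -0.01, and most intervals cross 0.

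Mrps17 encodes uS17m, a small-subunit protein with a bacterial counterpart, at chr5:129715497-129722556 (+ strand, GRCm38). It stood at 28.6, 48.8, 51.7, 57.0 and 65.7 CPM in the untreated mice and ran from 56.2 through a median of 69.2 to 106 CPM in the treated mice. The highest untreated mice overlapped the lowest treated mice. The log2 fold change was 0.54 ± 0.18 (SE; edgeR, unadjusted p = 0.00525, adjusted p = 0.9996), with a 95% interval of 0.17 to 0.90. Within primer barcode 9, which holds 3 mice of each group, it was 0.58. The unadjusted p stayed between 0.00301 and 0.0230 with any 1 library left out. In a fit with the code in the sample names as a block, described in the last section, the log2 fold change was 0.13.

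Mrpl21 encodes bL21m, a counterpart of a protein that binds ribosomal RNA in bacteria, at chr19:3282901-3292837 (+ strand). Its untreated values were 40.6, 44.7, 50.01, 53.2 and 63.4 CPM, and those of treated mice ran from 50.6 through a median of 63.8 to 76.8 CPM. The groups overlapped, and the log2 fold change was 0.40 ± 0.17 (SE; edgeR, unadjusted p = 0.0240, adjusted p = 0.9996). The unadjusted p was 0.104 without untreated replicate 1, 0.0831 without anti-LAG-3 replicate 6 and 0.0636 without anti-LAG-3 replicate 9. Of its 50-base stretches, 9.18% occur in other genes' transcripts.

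Mrps18b is 1 of 3 mammalian genes for relatives of bacterial bS18, and its protein and that of Mrps18c are found in the small subunit, whereas that of Mrps18a is found in the large one. Because the protein of Mrps18c takes the place of bS18, Mrps18b was counted above among the members without a bacterial counterpart. Mrps18b, at chr17:35910379-35916389 (- strand), stood at 14.6, 20.3, 28.2, 34.8 and 39.3 CPM in untreated mice and from 6.74 through a median of 17.3 to 25.7 CPM in treated mice. These values rest on 3 to 41 reads per library. Most treated mice lay below most untreated mice, with overlap, and the log2 fold change was -0.74 ± 0.27 (SE; edgeR, unadjusted p = 0.0104, adjusted p = 0.9996). It was -0.61 without untreated replicate 3 (unadjusted p = 0.0604). An antisense row, Gm16279, shares 25.1% of its 50-base stretches. Of the other genes of this trio, Mrps18c averaged 72.6 ± 26.01 and 62.8 ± 8.26 CPM, with a log2 fold change of -0.11, and Mrps18a 41.3 ± 14.1 and 44.4 ± 13.2 CPM, with a log2 fold change of 0.19. The value of Mrps18c was 0.051 with the primer barcode as a covariate, 0.0090 within barcode 9 and 0.027 without untreated replicate 2. That of Mrps18a ran from 0.078 to 0.33 when 1 library was left out. The differences between the 3 fold changes were not tested.

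Mrpl33, at chr5:31596935-31664384 (+ strand), had the second highest level of all members per kb. Its untreated values were 143, 152, 157, 163 and 175 CPM, and its anti-LAG-3 values ran from 130 through a median of 136 to 141 CPM. It was the only tested member whose groups did not overlap, against 0.475% of all genes tested. The means were 158 ± 12.0 and 136 ± 4.29 CPM (SD), and the log2 fold change was -0.21 ± 0.10 (SE; edgeR, unadjusted p = 0.0468, adjusted p = 0.9996). The unadjusted p was over 0.05 when any of the 5 untreated libraries except replicate 3, or any of the 6 anti-LAG-3 libraries except replicate 10, was left out, and reached 0.128 without untreated replicate 5. It was 0.0537 with the primer barcode as a covariate and 0.112 within barcode 9, where the log2 fold change was -0.20.

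**Figure D5:**
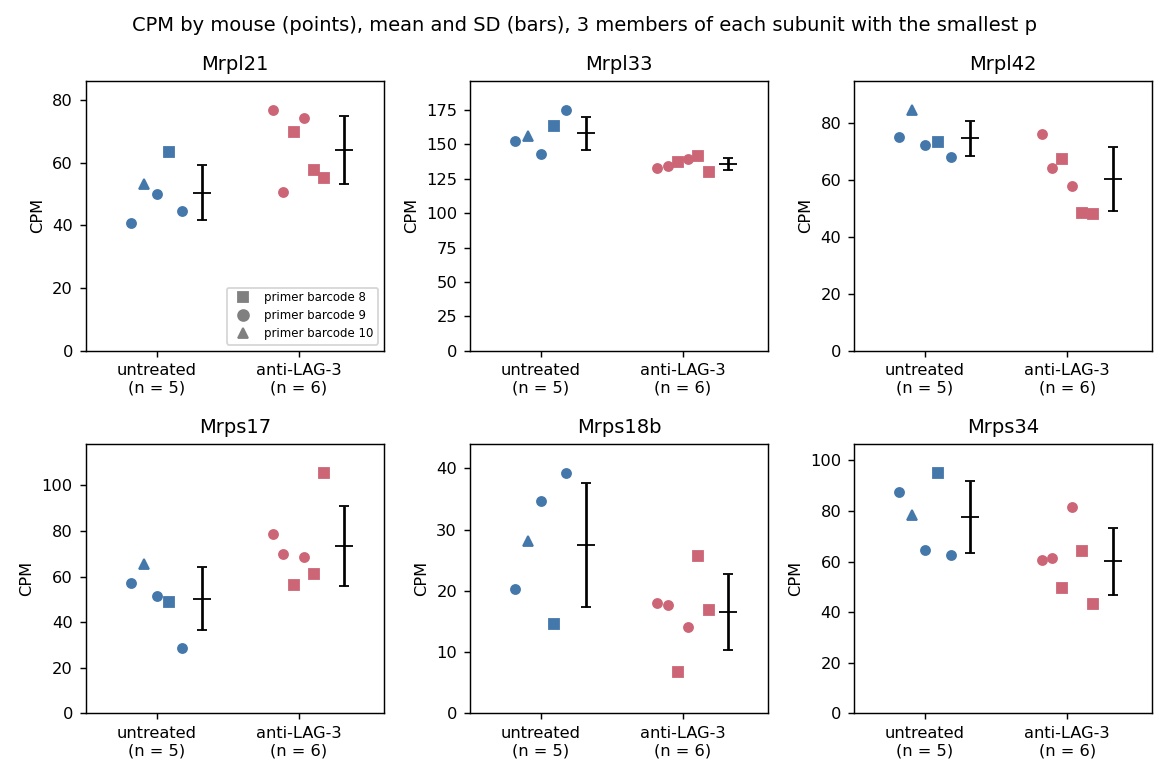
CPM of the 3 large-subunit and 3 small-subunit members with the smallest unadjusted p in each mouse, with point shapes for the primer barcode and bars for mean and SD. Mrpl33 is the panel without overlap (143 to 175 CPM untreated, 130 to 141 CPM anti-LAG-3), and the other 5 genes overlap.

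After these, the smallest p of each subunit belonged to Mrpl42 and Mrps34. Mrpl42, a protein without a bacterial counterpart, stood at 67.9, 72.0, 73.2, 74.98 and 84.5 CPM in untreated mice and at 48.0 to 75.9 CPM in treated mice, with a median of 61.0. Its log2 fold change was -0.24 over all mice (unadjusted p = 0.106 in edgeR, adjusted p = 0.9996) and -0.13 within barcode 9. Mrps34 stood at 62.6, 64.4, 78.3, 87.5 and 95.1 CPM in untreated mice and at 43.2 to 81.4 CPM, with a median of 61.1, in treated mice. Its log2 fold change of -0.31 (unadjusted p = 0.0589 in edgeR, adjusted p = 0.9996) was also -0.13 within barcode 9. In both genes the groups overlapped.

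The members with the highest levels per kb were measured as follows. Mrpl52 stood at 227, 245, 260, 263 and 307 CPM in untreated mice and at 208 to 295 CPM, with a median of 253, in treated mice. Its log2 fold change was -0.07 with a 95% interval of -0.28 to 0.15, and was -0.23 within barcode 9 and -0.0025 without untreated replicate 5. Mrpl54 averaged 108 ± 15.2 and 122 ± 7.05 CPM (SD), Mrpl20 133 ± 17.7 and 139 ± 18.3 CPM, and Mrpl23 78.5 ± 13.4 and 86.0 ± 12.7 CPM, with log2 fold changes of 0.15, 0.03 and 0.07. Within barcode 9 these were 0.087, -0.082 and -0.032. In the small subunit, Mrps21 averaged 119 ± 9.69 CPM in untreated and 102 ± 8.30 CPM in treated mice, and the groups overlapped between 108 and 110 CPM. Its log2 fold change was -0.20, with an interval of -0.43 to 0.03. Mrps15 averaged 65.7 ± 14.2 and 79.4 ± 14.2 CPM (log2 fold change 0.28, interval -0.02 to 0.59), Mrps24 92.8 ± 17.6 and 86.9 ± 15.8 CPM (-0.05) and Mrps36, the dehydrogenase component, 68.8 ± 11.1 and 73.1 ± 5.31 CPM (0.11). All of these intervals included 0.

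The factor-binding stalk, which recruits the translation factors, is built of the proteins of Mrpl10, Mrpl11 and Mrpl12. Mrpl10 stood at 41.5, 53.4, 55.5, 76.8 and 97.0 CPM in untreated mice and at 28.8 to 63.0 CPM in treated mice, with a median of 56.3. Its log2 fold change was -0.25 with an interval of -0.64 to 0.14, and was -0.09 with the primer barcode as a covariate and -0.13 without untreated replicate 2. Mrpl11 averaged 38.7 ± 8.64 and 35.9 ± 11.0 CPM, with a fitted log2 fold change of 0.05 that has the opposite sign, and Mrpl12 85.1 ± 30.6 and 80.7 ± 24.7 CPM (-0.01). In 12 of the 73 tested members, among them Mrpl11, Mrpl17, Mrpl19, Mrpl44, Mrpl46, Mrps9 and Mrps12, the difference of the mean CPM and the fitted log2 fold change differ in sign. These fold changes lie between -0.07 and 0.19, and their direction is not read here. The fit weights the deeper libraries more, whereas the means weight all mice alike. The stalk genes varied between mice within each group, with Mrpl12 ranging from 36.6 to 116 CPM among the untreated mice.

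Of the central protuberance, the crown of the large subunit that faces the small one, 5 genes were tested. Mrpl18 (uL18m) averaged 105 ± 16.2 and 110 ± 15.4 CPM and Mrpl38 24.8 ± 5.61 and 27.2 ± 6.16 CPM. Mrpl40 averaged 56.3 ± 7.499 and 54.6 ± 6.25 CPM, Mrpl46 46.7 ± 4.76 and 47.7 ± 12.5 CPM and Mrpl48 39.02 ± 15.02 and 41.4 ± 7.83 CPM. Their log2 fold changes lay between -0.07 and 0.16. Around the exit of the tunnel through which the new peptide leaves, 7 genes were tested. Mrpl45, which tethers the ribosome to the inner membrane, averaged 48.2 ± 9.99 and 46.9 ± 8.66 CPM, and Mrpl44 26.9 ± 4.05 and 26.4 ± 9.85 CPM. Mrpl17, Mrpl22, Mrpl24 and Mrpl39 had means of 48.3 and 46.3, 30.2 and 27.1, 90.5 and 102, and 35.7 and 34.4 CPM. The log2 fold changes of the 7 genes, Mrpl23 included, lay between -0.12 and 0.19. None had an unadjusted p under 0.05, against 3.71% of all genes.

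Mrpl58 encodes a peptidyl-tRNA hydrolase that became a part of the large subunit and is known to free stalled ribosomes. It stood at 58.5, 78.9, 80.5, 100 and 104 CPM in untreated mice and at 51.4 to 94.0 CPM, with a median of 60.6, in treated mice. The groups overlapped, with a log2 fold change of -0.26 and an interval of -0.59 to 0.07, and it was -0.14 within barcode 9 and -0.40 without treated replicate 6. In the small subunit, Mrps12 averaged 47.7 ± 9.38 and 49.1 ± 4.78 CPM and Mrps28 38.8 ± 6.32 and 27.2 ± 8.74 CPM. Mrps28 (bS1m) had a log2 fold change of -0.38 with an interval of -0.81 to 0.05, which was -0.18 within barcode 9 and -0.50 without treated replicate 7 (unadjusted p = 0.0364 in edgeR, smallest adjusted p of any member in that fit 0.664). Mrps30, found in the large subunit, averaged 41.3 ± 10.6 and 34.3 ± 10.3 CPM, with a log2 fold change of -0.15 over all mice and -0.01 within barcode 9.

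Among the members with the lowest levels per kb, Mrpl19 averaged 34.2 ± 6.40 and 34.2 ± 11.6 CPM, Mrps25 39.9 ± 10.7 and 41.3 ± 7.02 CPM and Mrps31 16.9 ± 4.63 and 16.4 ± 9.38 CPM. Mrps5 (uS5m) stood at 17.9, 18.8, 23.7, 31.7 and 33.6 CPM in untreated mice and at 22.5 to 61.0 CPM, with a median of 33.2, in treated mice. Its log2 fold change was 0.41 with an interval of -0.10 to 0.91, and was 0.22 within barcode 9. The filter left out 5 members, Mrpl1, Mrpl47, Mrps2, Mrps22 and Mrps27, with means between 9.26 and 16.9 CPM and 2 to 33 reads per library. Mrps2 (uS2m) stood at 2.34, 6.26, 7.32, 14.3 and 16.1 CPM in untreated mice and at 14.2 to 24.0 CPM, with a median of 15.9, in treated mice. Without the filter, its log2 fold change was 0.81 (edgeR, unadjusted p = 0.0249, adjusted p = 0.725). The other 4 had means of 13.1 and 16.5 CPM (Mrpl1), 12.3 and 11.5 (Mrpl47), 14.9 and 13.4 (Mrps22) and 13.5 and 11.7 (Mrps27).

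The members varied between mice about as much as other genes. The spread was given as the squared coefficient of variation of CPM within groups minus the share that Poisson counting gives, so that 0 or less means no spread beyond counting. Its median was 0.00741 over the 73 members and 0.00923 over all genes tested, and it was 0 or less in 22 members (30.1%) against 28.9% of all genes. It was largest for Mrps31 (0.106), Mrps9 (0.0910) and Mrpl12 (0.0905). Mrps9 (uS9m) ran from 26.8 to 62.6 CPM in untreated and from 13.5 to 54.2 CPM in treated mice. It was smallest for Mrpl39 (-0.0373), Mrpl2 (-0.0320) and Mrpl40 (-0.0172), with Mrpl2 (uL2m) at 40.5 ± 2.71 and 39.4 ± 5.69 CPM (SD). The median was 0.00470 over the large subunit and 0.0149 over the small subunit.

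The genes that work with the mitochondrial ribosome gave no adjusted p under 0.05. Of the 15 rows of mitochondrial DNA, its ribosomal RNAs and mRNAs, 11 (73.3%) had a fitted log2 fold change above 0, against 51.1% of all genes, and 12 had a higher mean CPM in treated mice. Of the 15 rows, 4 (26.7%) had an unadjusted p under 0.05, all higher, against 1.71% of all genes. These were mt-Co1 (4789 ± 147 and 5219 ± 235 CPM, log2 fold change 0.12 ± 0.04 (SE)), mt-Atp6 (2304 ± 156 and 2580 ± 139 CPM, 0.16 ± 0.05), mt-Nd1 (2757 ± 108 and 2987 ± 222 CPM, 0.11 ± 0.05) and mt-Cytb (2113 ± 73.2 and 2313 ± 204 CPM, 0.13 ± 0.06). The mRNAs of mitochondrial DNA took 1.78% to 1.84% of the counts in untreated mice and 1.83% to 2.08% in treated mice, so the groups overlapped at the edge. Within barcode 9 the shares were 1.82%, 1.83% and 1.78% in untreated and 1.97%, 1.83% and 1.83% in treated mice. Within barcode 8 they were 1.80% in the untreated mouse and 1.95% to 2.08% in treated mice. The part of the barcode was not tested, and the fold changes of these rows are given for the main fit only. The ribosomal RNA rows mt-Rnr1 and mt-Rnr2 had log2 fold changes of -0.01 and 0.16, in libraries made with oligo-dT beads. Among 4 tested ribosomal proteins without an Mrp symbol, Aurkaip1 averaged 116 ± 19.7 and 150 ± 26.2 CPM, with a log2 fold change of 0.34 ± 0.13 (SE; edgeR, unadjusted p = 0.0121, adjusted p = 0.9996). Dap3, Gadd45gip1 and Chchd1 had log2 fold changes of 0.16, 0.26 and -0.12.

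No gene with an unadjusted p under 0.05, against 3.71% of all genes, was found among 11 tested assembly factors, 9 translation factors, 5 mitochondrial tRNA synthetases or 4 factors of mitochondrial transcription and replication. By the fit, 7 assembly factors and 6 translation factors were above 0, and by the mean CPM 5 and 8 were higher in treated mice, so no direction is read from these lists. Of the synthetases 2 were higher, and of the transcription and replication factors 0, by both measures. Of the 6 tested nuclear regulators of mitochondrial genes, 4 were higher and 2 lower, and 1 had an unadjusted p under 0.05. This gene, Myc, which drives ribosome production in dividing cells, averaged 40.9 ± 10.4 and 57.8 ± 11.9 CPM, with a log2 fold change of 0.51 ± 0.19 (SE; edgeR, unadjusted p = 0.0140, adjusted p = 0.9996). The other 5 had no unadjusted p under 0.05. Nrf1, Yy1 and the GABP subunit Gabpa had log2 fold changes of 0.09, 0.04 and 0.04, and the other GABP subunit, Gabpb1, and Sp1, a factor that binds GC-rich promoters, of -0.29 and -0.34.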

How the data were processed

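Bulk RNA-seq libraries from 11 mice (5 untreated, 6 anti-LAG-3) were used. The authors made cDNA on oligo-dT beads with template switching and PCR, trimmed reads with Cutadapt 2.10 and mapped them to reference RNA of GRCm38 (release 101) with Bowtie2 2.4.2 by the methods, and with cutadapt 4.1 and Bowtie2 2.4.5 by the submitters' processing notes. They deposited raw read counts per gene symbol, and all 11 columns were matched to samples by title. No molecular identifiers entered the counts.

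The filter filterByExpr kept genes that reached 17.7 CPM (10 counts in a library of median size) in no fewer than 5 libraries, with 15 counts in all. These were normalized by TMM and tested with edgeR 4.0.16 (R 4.3.3), quasi-likelihood test, Benjamini-Hochberg threshold of 0.05, dispersions as in the methods. The p is bounded by that of Poisson counting, so it can exceed what the SE implies in genes with little spread. SE was taken from the log2 fold change and F (its size over √F), and intervals use 26.5 degrees of freedom. CPM values use TMM-scaled totals, except summed CPM. The groups share no replicate number. Each library is a mouse. The members and gene lists were chosen with earlier results of these data known.

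Named genes were, per subunit, the 5 highest and 3 lowest in CPM per kb and the 3 with the smallest p, plus those with p under 0.05, no overlap or not tested, the 3 with the largest and the 3 with the smallest excess spread, and genes fixed for their role. Lengths and coordinates are from GENCODE M21 (GRCm38), promoters from RefSeq. Promoter windows of Mrpl4, Mrpl13, Mrpl15, Mrpl19, Mrpl38, Mrpl54, Mrps28, Mrps34 and Mrps35 were not used here. Alternatives were the likelihood ratio test, DESeq2 1.42.0, RLE size factors, total counts, other filters, the primer barcode, subunits by structure, leaving out each library and, added after seeing the data, the code in the sample names as a block. The tests were tested on simulated data. Depths of 313524 to 1901374 counts set 3 counts at 9.57 to 1.58 CPM, which covers counting error only.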

Additional observations from a re-analysis of the deposited data

Results flagged for a closer look

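In 7 of 100 sets of values checked (named members, sums, ratio and depth in each group), 1 mouse stood far from the others of its group, where chance gives about 1 in 20 sets, or 5. Among untreated mice, these were replicate 2 for Mrpl45, at 31.3 CPM against 48.8 to 57.6 CPM in the others, and replicate 4 for Mrpl47, at 4.88 CPM against 12.5 to 15.7 CPM. Among anti-LAG-3 mice, replicate 6 had 0.494% of its counts on members against 0.443% to 0.457%. Replicate 11 was low for Mrpl10, at 28.8 CPM against 47.0 to 63.0 CPM, and high for Mrps2, at 24.0 CPM against 14.2 to 17.2 CPM. Replicate 9 was low for Mrpl2, at 29.5 CPM against 38.4 to 45.0 CPM, and replicate 10 for Mrpl38, at 16.1 CPM against 26.4 to 34.2 CPM.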

How the results depend on the processing

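By replicate number, no paired analysis was possible because the labels number the 11 mice in 1 run through both groups, so that no number is shared. An edgeR fit with the code in the sample names as a block, chosen after seeing the data, left 2 residual degrees of freedom, and only the 3 libraries of the code that both groups share carry its difference between groups. In it 16 of 6949 genes and 0 of 73 members had an adjusted p under 0.05 (485 genes and 3 members at an unadjusted p under 0.05), and the median log2 fold change was -0.16 for the large and -0.22 for the small subunit. The log2 fold change was 0.13 for Mrps17, 0.19 for Mrpl21, -0.35 for Mrps18b and -0.06 for Mrpl33, with intervals that included 0. The values below leave this fit out. No member had an adjusted p under 0.05 under any of the 8 other fits or without any 1 library, and 3 to 6 members had an unadjusted p under 0.05. The members numbered 3 of 73 with DESeq2, against 163 of 6949 genes, and 6 of 78 without the filter, against 1086 of 24024. They numbered 4 of 78 within barcode 9, against 425 of 9071 genes, and 6 of 75 without anti-LAG-3 replicate 10, against 311 of 7524. Without the filter, 7 of 24024 genes had an adjusted p under 0.05, none of them members, whose smallest adjusted p was 0.479. The cause was not tested. Over the other fits the median log2 fold change ran from -0.032 to 0.0010 for the large subunit and from -0.027 to 0.042 for the small subunit, and without 1 library from -0.062 to 0.019 and from -0.043 to 0.054. The ratio of large to small, anti-LAG-3 over untreated, stayed between 0.962 and 1.01. Of 40 tested named genes, the log2 fold change moved by over 1.5 times or changed sign in 30 within barcode 9. It did so in 21 with the barcode as a covariate, in 29 without some 1 library and in 2 to 5 under each other fit. The exception was the stricter filter, with 0 of the 34 genes it kept. Some named genes with log2 fold changes near 0 changed sign. With the primer barcode as a covariate, the log2 fold change was -0.0015 for Mrpl20, 0.051 for Mrps18c, 0.025 for Mrps24 and 0.20 for Mrpl12. Within barcode 9, the log2 fold change was -0.082 for Mrpl20, -0.032 for Mrpl23, 0.0090 for Mrps18c, 0.077 for Mrps24, 0.10 for Mrpl12, -0.059 for Mrpl18 and 0.0096 for Mrpl46. With DESeq2, the log2 fold change was -0.0055 for Mrpl17 and 0.0057 for Mrpl46. Without the filter, the log2 fold change was 0.0010 for Mrpl12 and 0.0010 for Mrpl46. With the likelihood ratio test, the log2 fold change was 0.0061 for Mrpl46. Without 1 library it ran from -0.029 to 0.080 for Mrpl20, from -0.0077 to 0.19 for Mrpl23, from -0.11 to 0.066 for Mrpl17, from -0.18 to 0.12 for Mrpl19, from -0.25 to 0.027 for Mrps18c, from -0.14 to 0.053 for Mrps24, from -0.15 to 0.18 for Mrps9, from -0.15 to 0.10 for Mrpl12, from -0.12 to 0.0052 for Mrpl2, from -0.078 to 0.14 for Mrpl11, from -0.0071 to 0.11 for Mrpl18, from -0.13 to 0.18 for Mrpl46, from -0.16 to 0.017 for Mrpl45 and from -0.11 to 0.057 for Mrps12. The cause of these changes was not tested. Of the 4 members with an unadjusted p under 0.05, only Mrps17 stayed under it in all of these fits. Depth bounds the low genes (3 counts are 9.57 CPM in the shallowest library), and Mrps31, the lowest tested member, also had the largest spread beyond counting (0.106).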
